A study of Mus musculus with 16 samples.

Results

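The transcripts of 10 genes of the integrated stress response were measured in mouse quadriceps: the transcription factor genes Atf4, Atf5 and Ddit3, the feedback gene Trib3, the amino acid and one-carbon enzyme genes Asns, Psat1, Phgdh and Mthfd2, and the hormone genes Fgf21 and Gdf15. They were chosen by name, and all 10 are among the 45706 genes of the deposited table. Gene positions below are from GENCODE vM21 (GRCm38). Polyadenylated RNA came from 8 libraries of mice whose Nampt gene was knocked out in skeletal muscle only (KO) and 8 of wild-type mice (WT). The labels name the tissue as skeletal muscle and the dissected muscle as QUAD, and the driver of the knockout, the age, sex and treatment of the mice were not given in the sources used here. NAMPT makes nicotinamide mononucleotide, the main precursor of NAD in muscle, and the study's title asks whether loss of NAD speeds muscle ageing.

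Cells under stress phosphorylate the translation factor eIF2 alpha, which slows protein synthesis in general but raises translation of the Atf4 mRNA. ATF4 protein then switches on genes for amino acid synthesis and import, one-carbon metabolism and further transcription factors. In muscle with damaged mitochondria this response is known for the release of the hormones FGF21 and GDF15, which act on other organs. PHGDH and MTHFD2 use NAD as a cofactor. Because ATF4 is controlled largely at translation, the level of its mRNA does not report the amount of its protein.

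ATF4 binds composite elements with C/EBP proteins, and the core of such an element is written TGATGNAA. In the 250 bases before the transcription start in RefSeq (GRCm38.p6), 2 of the 10 genes held this core on either strand, Asns and Fgf21, against 3.91% of all 27025 genes with a window. The shown windows are these 2, because Asns was measured in every library and Fgf21 in almost none, and that of Atf4, which held no match. Capitals mark the core, which lies 23 to 16 bases before the RefSeq start in Asns and 139 to 132 bases before it, in reverse complement, in Fgf21. The windows are chr6:7693225-7693459 on the minus strand for Asns, chr7:45615491-45615740 on the minus strand for Fgf21 and chr15:80254934-80255183 on the plus strand for Atf4, each written 5′ to 3′ along its gene. GENCODE starts Asns further upstream, so the last 30 bases shown, core included, lie inside its gene span, and the 15 bases between the core and the RefSeq start are not shown.
Asns: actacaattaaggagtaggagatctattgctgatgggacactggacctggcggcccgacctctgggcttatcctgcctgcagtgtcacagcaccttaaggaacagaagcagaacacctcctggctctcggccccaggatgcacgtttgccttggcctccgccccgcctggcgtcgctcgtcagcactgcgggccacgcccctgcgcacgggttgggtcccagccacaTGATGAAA
Fgf21: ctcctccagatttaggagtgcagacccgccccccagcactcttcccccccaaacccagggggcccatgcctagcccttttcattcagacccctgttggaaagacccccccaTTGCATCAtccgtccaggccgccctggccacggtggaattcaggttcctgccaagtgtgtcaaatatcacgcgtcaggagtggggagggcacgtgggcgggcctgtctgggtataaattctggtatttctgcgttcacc
Atf4: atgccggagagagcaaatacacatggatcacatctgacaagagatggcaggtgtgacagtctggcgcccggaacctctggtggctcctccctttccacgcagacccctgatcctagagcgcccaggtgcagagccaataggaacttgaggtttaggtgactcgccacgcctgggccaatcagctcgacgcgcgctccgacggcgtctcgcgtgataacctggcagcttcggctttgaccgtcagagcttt
A match to these letters is a description and not a binding site, and the other 8 genes may hold the element outside this window. The cyclic AMP response element TGACGTCA, searched on both strands, was in 0 of the 10 genes and in 1.77% of all genes.

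Nampt, the targeted gene, had 60.4 to 88.7 CPM in KO, against 125.5 to 161.1 CPM in WT, where CPM is the usual depth-scaled unit with library sizes adjusted by TMM. The log2 fold change, KO over WT, was -0.95 (SE 0.07, adjusted p = 9.68e-07 in edgeR's quasi-likelihood test). Totals ran from 16065394 to 51881258 estimated counts, and RNA integrity numbers from 8.2 to 8.8. Of 13792 genes tested, 6 were called at an adjusted p under 0.05, which is 0.0435%. The muscle genes Myh4 and Acta1, of fast myosin and skeletal actin, had 70670 and 25806 CPM in KO, against 74475 and 25451 CPM in WT. KO libraries 1, 3, 5 and 8 held more RNA that lacks a poly(A) tail, with a mean log2 score over 11 such genes of 3.92 to 4.29, against 2.58 to 3.17 in the other KO and 2.60 to 3.76 in the WT libraries. Of 79 tested markers in 9 lists, those of other cell types and of slow muscle fibres, 0 were called with edgeR or limma and 1 with DESeq2. DESeq2, which called 102 of all 13792 genes tested, gave no adjusted p for 17 of the 79. Of the 79, 8 (10.1%) were at an unadjusted p under 0.05 in edgeR, 8 higher and 0 lower in KO, all in the endothelial, pericyte or satellite cell lists, where 4.02% of all tested genes were higher and 5.55% lower. The 8 slow fibre markers were all above 0, with a median log2 fold change of 0.27 and a smallest edgeR adjusted p of 0.749. The labels do not say that libraries came from separate animals, so each p-value rests on the spread between these samples, which may be technical.

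None of the genes that could be tested was called in KO against WT. The filter on low counts kept 8 of the 10, and these gave 0 calls at an adjusted p under 0.05 and 0 at an unadjusted p under 0.05 with edgeR, DESeq2 and limma, where 9.57% of all tested genes passed the unadjusted limit in edgeR, 4.02% as higher and 5.55% as lower in KO. No adjusted p came from DESeq2 for 5 of the 8. The smallest adjusted p in edgeR was 0.743, for Trib3. The median log2 fold change of the 8 was 0.01, against 0.00 for all tested genes, with 5 above and 3 below 0. KO and WT libraries overlapped in all 8 genes, and non-overlap was found in 0.123% of all tested genes. The 95% interval of the fold change lay within 1.5-fold in either direction for 7 of the 8, the exception being Trib3, against 86.2% of all tested genes.

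**Figure D1:**
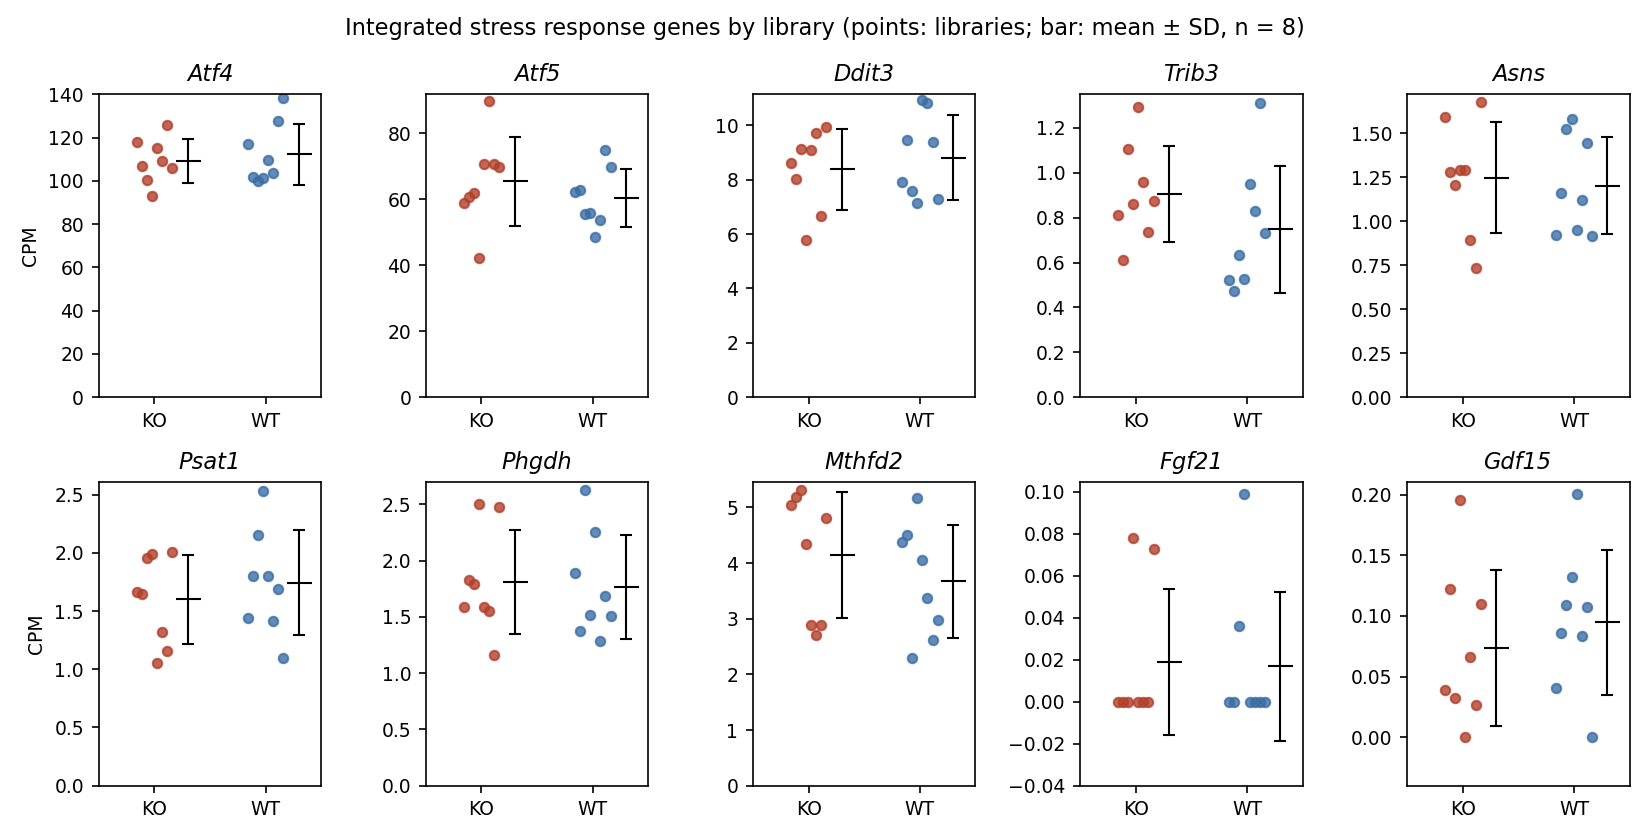
CPM of the 10 genes in each of 8 KO (left) and 8 WT (right) libraries, one panel a gene with its own linear axis, with the mean and SD beside the points. The KO and WT points overlap in every panel, and the highest values are 0.0988 CPM for Fgf21 and 0.200 CPM for Gdf15.

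Atf4 (chr15:80255184-80257541, plus strand), the transcription factor at the centre of the response, was the most abundant of the 10. It had a lowest, median and highest level of 93.2, 108 and 126 CPM in KO, against 100.02, 107 and 138 CPM in WT. The means were 109 ± 10.2 CPM in KO, against 112 ± 14.1 CPM in WT (SD, n = 8 each). KO library 4 lay below every WT library, while WT libraries 7 and 8 lay above every KO library. Its log2 fold change of -0.04 had an SE of 0.07 and a 95% interval of -0.19 to 0.11 (edgeR, adjusted p = 0.912). That interval was the narrowest of the 8 and allows 87.5% to 108% of the WT level.

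Atf5 (chr7:44812256-44816658, minus strand), a related factor whose mRNA is likewise translated under eIF2 alpha phosphorylation and which in mammalian cells acts in the mitochondrial stress response, had 42.2, 65.7 and 89.7 CPM as lowest, median and highest in KO. In WT these were 48.7, 58.9 and 74.9 CPM. KO libraries reached further in both directions, with library 6 above every WT library and library 4 below every one. Means were 65.5 ± 13.5 CPM in KO, against 60.4 ± 8.76 CPM in WT (SD, n = 8 each), and the log2 fold change was 0.12 (95% interval -0.13 to 0.36, edgeR adjusted p = 0.805). Leaving out KO library 6 gave 0.04, and leaving out KO library 4 gave 0.19. Exons of Atf5 share 82 bases, or 4.11% of their length, with Il4i1 on the opposite strand, and the strand setting of the counting is not given in the sources used here.

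Ddit3 (chr10:127290774-127296288, plus strand), which encodes CHOP, the factor tied to cell death under lasting stress, had 5.78, 8.86 and 9.96 CPM in KO, against 7.14, 8.65 and 10.9 CPM in WT as lowest, median and highest. KO libraries 4 and 7 lay below every WT library, and WT libraries 5 and 6 above every KO library. The log2 fold change was -0.07 (95% interval -0.32 to 0.18, edgeR adjusted p = 0.904), with means of 8.38 ± 1.48 CPM in KO, against 8.82 ± 1.55 CPM in WT (SD, n = 8 each). Without KO library 4 it was -0.01, and without KO libraries 1, 3, 5 and 8, those with most RNA lacking a poly(A) tail, it was -0.22. That fit kept every WT library, and WT libraries 2 and 8, with scores of 3.58 and 3.76 for such RNA, exceeded the remaining KO libraries. With the score as a covariate over all 16 libraries, the log2 fold change of Ddit3 was -0.12. Mars, the methionyl-tRNA synthetase gene on the opposite strand, shares 68 bases or 3.97% of the exons of Ddit3 and had a log2 fold change of 0.04. A second GENCODE gene of the same name and strand, which is not among the genes analysed here, shares 105 bases or 6.13%.

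Trib3 (chr2:152337422-152344032, minus strand), a pseudokinase gene that ATF4 and CHOP induce and that dampens the response, showed the largest difference of the 8, and it was within the spread between libraries. Lowest, median and highest were 0.610, 0.867 and 1.29 CPM in KO, against 0.472, 0.683 and 1.31 CPM in WT. In 6 of 8 KO libraries Trib3 lay above the WT mean, yet the highest library of all was WT library 7. The log2 fold change of 0.27 had an SE of 0.21 and an interval of -0.18 to 0.71, which allows a 1.63-fold rise (edgeR adjusted p = 0.743). The value was 0.45 without WT library 7, which took it past an unadjusted p of 0.05 (adjusted p = 0.361), and 0.09 without KO libraries 1, 3, 5 and 8. It was 0.21 with the covariate of RNA lacking a poly(A) tail. WT library 7 was also the highest in a list of 12 genes of dissection and handling stress, at 1014 CPM summed, followed by KO library 4 at 647 CPM. In the endoplasmic reticulum response list it was highest as well, at 1102 CPM. Over the 16 libraries Trib3 had r = 0.36 with the handling list (permutation p = 0.217, adjusted p = 0.653), and the part of handling was not tested. The median library held 23 estimated counts of Trib3 in KO and 17.5 in WT, which limits the precision.

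**Figure D2:**
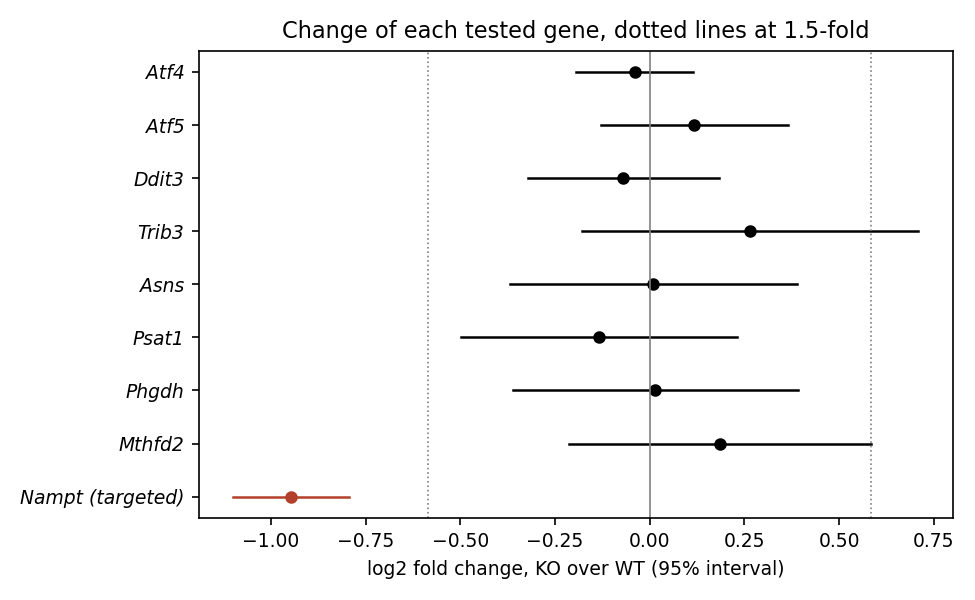
Log2 fold change, KO over WT, with 95% intervals from edgeR for the 8 tested genes and for Nampt, with dotted lines at 1.5-fold. All 8 intervals include 0, only that of Trib3 crosses a dotted line, and Nampt lies at -0.95.

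Among the enzymes, the product of Asns (chr6:7675169-7693254, minus strand) makes asparagine from aspartate and glutamine, and its promoter window with the core is printed above. It had 0.736, 1.28 and 1.68 CPM in KO, against 0.915, 1.14 and 1.58 CPM in WT as lowest, median and highest. KO libraries 1 and 8 lay above and KO libraries 6 and 7 below the whole WT range. The log2 fold change was 0.01 (95% interval -0.37 to 0.39, edgeR adjusted p = 0.993), and without KO libraries 1, 3, 5 and 8 it was -0.25 (adjusted p = 0.764). It was -0.11 with the covariate of RNA lacking a poly(A) tail.

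Phgdh (chr3:98313170-98339990, minus strand) and Psat1 (chr19:15904678-15947337, minus strand) encode the first and second enzymes of serine synthesis from a glycolytic intermediate. Phgdh had 1.16, 1.69 and 2.50 CPM in KO, against 1.29, 1.60 and 2.62 CPM in WT, with a log2 fold change of 0.02 (95% interval -0.36 to 0.39, edgeR adjusted p = 0.989). Psat1 had 1.06, 1.66 and 2.01 CPM in KO, against 1.10, 1.74 and 2.53 CPM in WT, with a log2 fold change of -0.13 (95% interval -0.50 to 0.23, edgeR adjusted p = 0.857). In Psat1, WT libraries 3 and 4 lay above every KO library and KO library 5 below every WT library, and without WT library 4 its log2 fold change was -0.04. Counts were low for both genes, with a median of 43.5 in KO and 39 in WT for Psat1, against 45.4 and 45.5 for Phgdh. Psat1 had 18 counts in KO library 5 and 24 in WT library 8. The estimated counts of Phgdh were not whole (by more than 0.01) in 6 of 16 libraries, and RefSeq lists a pseudogene of it, Phgdh-ps1, on chromosome 7, so its values are uncertain.

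Mthfd2 (chr6:83305691-83325908, minus strand), a mitochondrial enzyme of the folate cycle that is low in most adult tissues, had 2.71, 4.57 and 5.30 CPM in KO, against 2.30, 3.71 and 5.17 CPM in WT as lowest, median and highest. The KO libraries fell apart into 5 at or above 4.33 CPM and 3 at or below 2.89 CPM, while the WT libraries spread more evenly. Its log2 fold change was 0.19 (95% interval -0.21 to 0.58, edgeR adjusted p = 0.809), 0.28 without WT library 4 and 0.10 without WT library 3. It was 0.03 without KO libraries 1, 3, 5 and 8, and 0.10 with the covariate of RNA lacking a poly(A) tail.

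Fgf21 (chr7:45613886-45615490, minus strand) and Gdf15 (chr8:70629393-70632456, minus strand), the secreted arm of the response, were barely detected and did not pass the filter on low counts. Fgf21 had 4 estimated counts over all 8 KO libraries, 2 each in libraries 4 and 8, against 5 over the WT libraries, 3 in library 4 and 2 in library 3, and 0 in every other library. Both groups thus lie near the limit of counting, and no fold change is given. A count of 0 allows up to 3 counts, which is 0.0789 to 0.183 CPM over the KO libraries, against 0.0803 to 0.150 CPM over the WT libraries, each over the 6 at 0, for counting error only.
Gdf15 had 15 counts in KO and 23 in WT, with 7 of 8 libraries of each genotype above 0 and no library above 5 counts in KO or 6 in WT. Its lowest, median and highest levels were 0, 0.0525 and 0.195 CPM in KO, against 0, 0.0964 and 0.200 CPM in WT. The difference in log2(CPM + 0.5), KO minus WT, was -0.05 (two-sided exact permutation test, p = 0.496, n = 8 each). The added 0.5 is larger than every Gdf15 level, the highest being 0.200 CPM, so it shrinks this difference. Without the filter, edgeR gave Gdf15 a log2 fold change of -0.39 with a 95% interval of -1.47 to 0.69 (adjusted p = 0.838). That interval includes a 2-fold fall in KO, so such a change is not excluded.

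The receptors of the 2 hormones were described from a list of 7 genes. Fgfr1, a receptor of FGF21, had 80.1 CPM in KO, against 76.5 CPM in WT, with a log2 fold change of 0.07 (edgeR adjusted p = 0.808). Klb, the co-receptor that FGF21 requires, had 50 counts over all KO and 67 over all WT libraries, and Gfral, the receptor of GDF15 known from the hindbrain, had 0 counts in all 16 libraries. Fgfr4, another receptor of the FGF family, had 2.38 CPM in KO, against 2.07 CPM in WT (log2 fold change 0.21, edgeR adjusted p = 0.477), and was the 1 gene of the 4 tested at an unadjusted p under 0.05 with edgeR and limma, while DESeq2 had 0. In edgeR that share of 25% rests on 4 genes, beside 9.57% over all tested genes. Ret, which signals together with Gfral, had 8.08 CPM in KO, against 9.09 CPM in WT (log2 fold change -0.17, edgeR adjusted p = 0.700).

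Divided by the length of their exons, the 10 genes ran in mean level from Atf4 and Atf5 through Ddit3, Mthfd2, Phgdh, Asns, Psat1 and Trib3 to Gdf15 and Fgf21. Over all 16 libraries Atf4 had 47.0 CPM per kilobase and Atf5 had 31.6, and Atf4 was the higher in 16 of 16 libraries. Ddit3 followed at 5.02 and Mthfd2 at 1.12 CPM per kilobase, each with a range apart from that of the gene before it. Phgdh at 0.720 CPM per kilobase was below Mthfd2 in 15 of 16 libraries. Asns, Psat1 and Trib3, at 0.447, 0.393 and 0.389 CPM per kilobase, were not separated by this measure: Asns exceeded Psat1 in 10 of 16 libraries, and Psat1 exceeded Trib3 in 8, with Trib3 the higher of the pair in KO and Psat1 in WT. That order depends on the length used, here all exons of a gene merged, which is 4254 bases for Psat1 against 2617 in its longest transcript. Per kilobase of the longest transcript, Psat1 was at 0.611 in KO and 0.666 in WT. Trib3 was then lower, at 0.447 and 0.369, and Asns at 0.618 and 0.596. Gdf15 at 0.0455 and Fgf21 at 0.0188 CPM per kilobase came last.

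The rest of the pathway was described by 9 lists with 132 tested genes, of which 4 stand in 2 lists. With edgeR, DESeq2 and limma 0 of the 132 were called, and 33 had no adjusted p in DESeq2. At an unadjusted p under 0.05 in edgeR there were 7 (5.30%), 4 higher and 3 lower in KO, against 9.57% of all tested genes. DESeq2 had 6 and limma 7 at that p. The median log2 fold change of the 132 was -0.00, with 65 above and 67 below 0.

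Upstream of ATF4, all 4 kinases of eIF2 alpha were measured, and they are named here after their values were seen. Eif2ak1, which relays mitochondrial stress, had a log2 fold change of -0.06 at 57.8 CPM in KO, against 60.3 CPM in WT. Eif2ak4, the sensor of uncharged tRNA, was at -0.10, Eif2ak3, the sensor of the endoplasmic reticulum, at -0.09, and Eif2ak2, the sensor of double-stranded RNA, at -0.06. All 4 had edgeR adjusted p values between 0.579 and 0.904. Of the 19 tested genes of kinases, phosphatase, eIF2 and eIF2B, 1 was higher and 1 lower at an unadjusted p under 0.05. These were Oma1, the mitochondrial protease that starts the relay to Eif2ak1, at 0.08 (adjusted p = 0.473), and Eif2b5, a subunit of the exchange factor of eIF2, at -0.07 (adjusted p = 0.487). Over all tested genes in edgeR, 4.02% were higher and 5.55% lower in KO at that unadjusted limit.

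Among the 21 tested effector genes outside the 10, Stc2, which encodes stanniocalcin 2, had 2.56 ± 0.623 CPM in KO, against 1.87 ± 0.375 CPM in WT (SD, n = 8 each; log2 fold change 0.46, edgeR adjusted p = 0.307). Gpt2, a mitochondrial alanine aminotransferase gene, had 205 ± 40.0 CPM in KO, against 263 ± 44.6 CPM in WT (log2 fold change -0.36, edgeR adjusted p = 0.307). In edgeR both were at an unadjusted p under 0.05, in opposite directions, a share of 9.52%, beside 9.57% over all tested genes. With DESeq2 there were 3 at that p, the third Map1lc3b, an autophagy gene, at -0.08. The abundant Sqstm1, an autophagy receptor gene, was at -0.04. Xbp1, the spliced factor of the endoplasmic reticulum response, had 47.9 CPM in KO, against 42.5 CPM in WT (log2 fold change 0.17, edgeR adjusted p = 0.337) and was the only one of 21 tested genes of that response at an unadjusted p under 0.05, a limit that 9.57% of all tested genes passed in edgeR. Hspa5, its chaperone BiP, was at 0.08.

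The 14 tested aminoacyl-tRNA synthetase genes lay between -0.05 and 0.07 on the log2 scale, with all 14 intervals within 1.5-fold, and Eprs, the most abundant of them, was at 0.04. The 17 genes of the mitochondrial unfolded protein response lay between -0.06 and 0.08, with Hspa9 and Hspd1, the chaperones of the matrix, at 0.02 and -0.04 and all 17 intervals within 1.5-fold. For the 15 tested genes of serine, one-carbon, proline and cysteine synthesis the median was -0.02, and 0 reached an unadjusted p under 0.05 with any of the 3 tools. The 12 tested amino acid transporter genes had a median of -0.04, and Slc7a8 was at -0.26 (edgeR adjusted p = 0.476). Slc7a11 and Slc7a3 of the transporter list and Cbs and Gldc of the synthesis list did not pass the filter on low counts. Dele1, on the list of eIF2 alpha kinases, was not matched by name. No change of these genes was thus assessed.

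**Figure D3:**
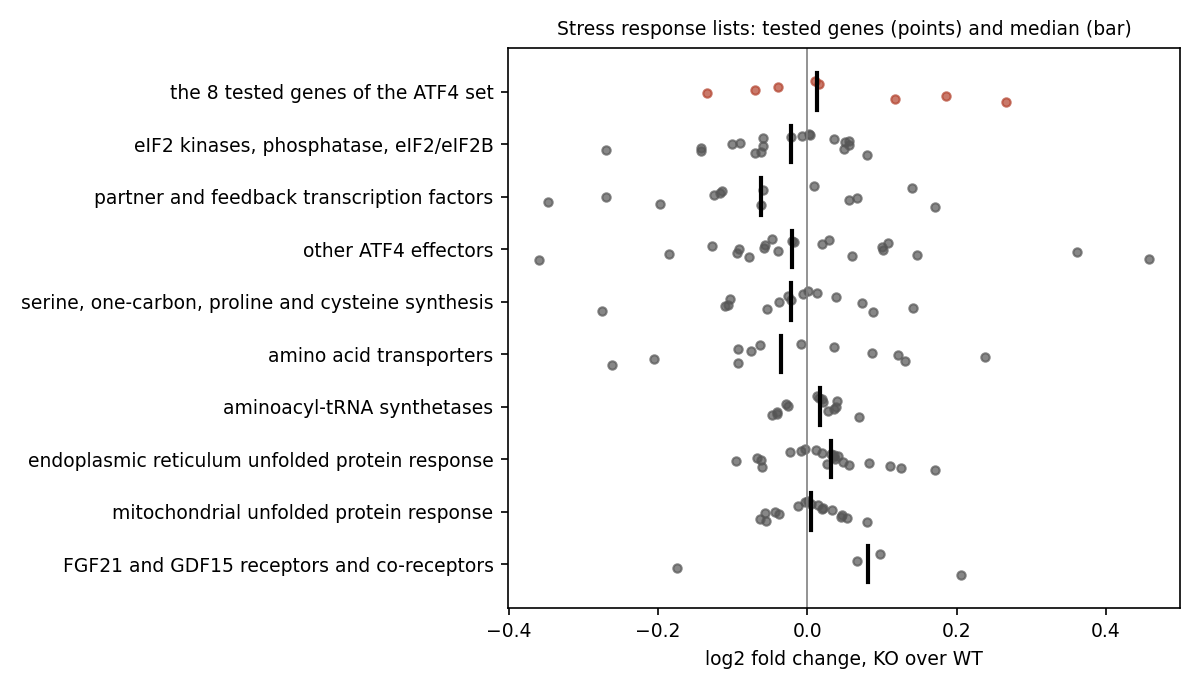
Log2 fold change, KO over WT, of each tested gene (points) and the median (bar) in the 8 tested genes of the set and in the 9 pathway lists. Medians lie between -0.06 for partner transcription factors and 0.08 for the receptors of FGF21 and GDF15, and 0 genes shown passed the test.

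Spread between libraries of one genotype differed among the 8 genes. The SD of log2(CPM + 0.5) after subtracting each genotype mean had a median of 0.26 over the 8, against 0.15 over all tested genes. Set beside the 500 tested genes nearest in level, Atf5 stood at the 93.4th percentile, Mthfd2 at the 93.2nd and Ddit3 at the 86.6th, and Atf4 at 77.6. Phgdh stood at 69.6, Psat1 at 68.0, Asns at 51.4 and Trib3 at 46.8. The highest KO library exceeded the lowest by 1.35-fold in Atf4 and by 2.28-fold in Asns, and in WT the corresponding ratios were 1.38 in Atf4 and 1.73 in Asns.

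The 8 genes did not rise and fall as one group across libraries. Of 28 pairs, 15 had a Pearson r above 0, the median r was 0.04, and 0 pairs passed a Benjamini-Hochberg adjustment over the 28. The strongest relation was inverse: Atf4 was low where Psat1 was high (r = -0.73, permutation p = 0.00234, adjusted p = 0.0655, Spearman rho = -0.73, permutation p = 0.00243, n = 16). Within KO its r was -0.75 and within WT -0.72, and it was -0.57 without the 2 libraries farthest from the median of Atf4. Asns and Psat1 varied in the same direction (r = 0.68, permutation p = 0.00579, adjusted p = 0.0811, rho = 0.71 with permutation p = 0.00411), with r of 0.60 in KO, 0.78 in WT and 0.60 without the 2 farthest libraries. Atf4 and Atf5 did so as well (r = 0.61, permutation p = 0.0112, adjusted p = 0.104, rho = 0.61 with permutation p = 0.0158), with 0.56 in KO, 0.73 in WT and 0.59 without the 2 farthest.

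**Figure D4:**
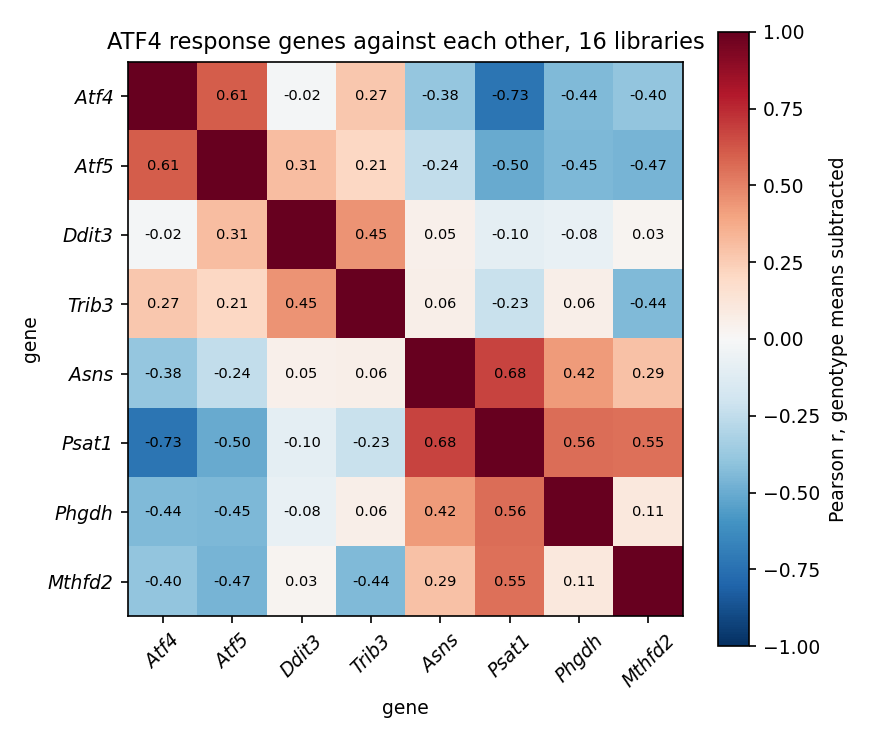
Pearson r between each pair of the 8 tested genes over 16 libraries, after subtracting the mean of each genotype, from blue (-1) to red (1). The 4 enzyme genes at the lower right are positive with each other, from 0.11 to 0.68, and Atf4 and Atf5 are negative with all 4 of them, down to -0.73 for Atf4 with Psat1. Taken by genotype, Asns with Mthfd2 was at 0.70 in KO and -0.20 in WT, and Phgdh with Mthfd2 at 0.56 in KO and -0.37 in WT. The other enzyme pairs were above 0 in both genotypes.

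The level of Psat1 followed macrophage markers, and Atf4 ran opposite to them. How many of all tested genes follow or oppose such marker lists as strongly was not counted. Neither relation is thus shown to be particular to Psat1 or Atf4. The score of 12 macrophage markers, the mean of their log2 values, was set against each gene over 16 libraries with genotype means subtracted, together with 22 other lists, RIN and depth, in 200 relations. Of these, 4 passed a Benjamini-Hochberg adjustment over the 200 with Pearson and 6 with Spearman. The further 2 with Spearman were those of Psat1 with amino acid transporters (rho = 0.81, permutation p = 0.00024, adjusted p = 0.012; r = 0.73, adjusted p = 0.075; n = 16) and with the mitochondrial unfolded protein response (rho = -0.78, permutation p = 0.00143, adjusted p = 0.0477; r = -0.73, adjusted p = 0.0817). Psat1 with macrophage markers had r = 0.89 (permutation p = 2e-05, adjusted p = 0.002; rho = 0.84, permutation p = 1e-04; n = 16). Within KO it was 0.86, within WT 0.93, and without the 2 libraries farthest from the median of Psat1 it was 0.88. Atf4 with macrophage markers had r = -0.88 (permutation p = 4e-05, adjusted p = 0.00267; rho = -0.88, permutation p = 5e-05; n = 16), with -0.93 in KO, -0.85 in WT and -0.83 without the 2 farthest libraries.

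Both genes also moved with the 10 fibro-adipogenic markers, the genes of connective tissue progenitors. Psat1 had r = 0.81 (permutation p = 0.00037, adjusted p = 0.0185; rho = 0.78, permutation p = 0.00099; n = 16), with 0.77 in KO, 0.88 in WT and 0.76 without the 2 farthest libraries. Atf4 had r = -0.88 (permutation p = 1e-05, the smallest that 100000 resamples can give, adjusted p = 0.002; rho = -0.88, permutation p = 1e-05; n = 16), with -0.93 in KO, -0.90 in WT and -0.81 without the 2 farthest. The marker lists move together: the 4 libraries highest in macrophage markers, WT 4, KO 4, KO 3 and WT 3, are among the 5 highest in fibro-adipogenic markers, so the 2 relations are not independent. These are the KO and WT libraries numbered 3 and 4, and the permutation p-values take no account of any pairing by number. WT 4 and KO 4 were also highest in satellite cell and regeneration markers, at 270 and 175 CPM summed, followed by KO 3 at 117 CPM. With that list Psat1 had r = 0.67 (permutation p = 0.00402, adjusted p = 0.0893) and Atf4 r = -0.60 (permutation p = 0.0206, adjusted p = 0.217). In whole muscle, fewer cells of a type and less RNA per cell cannot be told apart.

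The libraries highest and lowest in summed macrophage markers illustrate these relations, and being among the same 16 they add no further support. KO library 4, with 329 CPM summed over the macrophage markers, had 1.99 CPM of Psat1 and 93.2 CPM of Atf4, and WT library 4, with 356 CPM, had 2.53 and 101 CPM. KO library 7, with 141 CPM of the markers, had 1.16 CPM of Psat1 and 126 CPM of Atf4, and WT library 8, with 138 CPM, had 1.10 and 138 CPM. The summed markers ran from 141 to 329 CPM in KO, against from 138 to 356 CPM in WT, so the genotypes covered nearly the same range, and of the 12 markers 0 were called and 0 were at 0 counts. Atf4 was also lower where the RIN was higher (r = -0.60, permutation p = 0.0162, adjusted p = 0.191; rho = -0.52, permutation p = 0.0438), a relation that fell to -0.21 without the 2 libraries farthest from the median of Atf4. Atf5 had r = -0.57 with RIN (permutation p = 0.0218, adjusted p = 0.218; rho = -0.58, permutation p = 0.0258; -0.51 without the 2 farthest). Psat1 had r = 0.53 (permutation p = 0.0461, adjusted p = 0.329; rho = 0.48, permutation p = 0.0704), with 0.30 in KO, 0.74 in WT and 0.48 without the 2 farthest. The part of RNA integrity in the relations to marker lists was not tested.

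**Figure D5:**
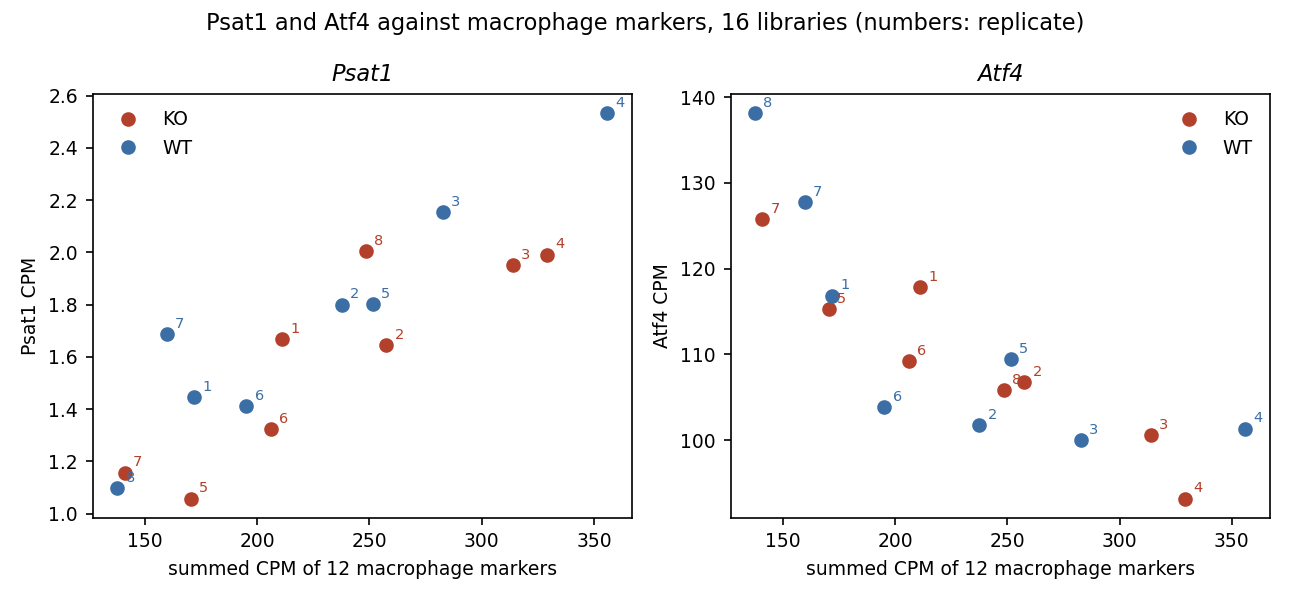
CPM of Psat1 (left panel) and Atf4 (right panel) against the summed CPM of 12 macrophage markers in 8 KO (red) and 8 WT (blue) libraries, numbered by replicate. Psat1 climbs from 1.10 CPM in WT library 8 to 2.53 CPM in WT library 4, while Atf4 is 138 CPM in WT library 8 and 93.2 CPM in KO library 4.

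Among 11484 named genes with a mean of at least 1 CPM, those most like each gene over the 16 libraries were taken by the highest Pearson r with genotype means subtracted. For Psat1 they were Slc37a2 (r = 0.96), C1qb (0.94) and Lyz2 (0.93), the last 2 of which are complement and lysozyme genes on the macrophage list. For Atf4 they were Upf2 (0.97), Golga4 (0.94) and Zfp106 (0.93). Mthfd2 was most like Trp53inp2 (0.88), Tmem178b (0.87) and Rom1 (0.87), and Atf5 most like Nudt3 (0.86), Fbxw4 (0.84) and Tspan9 (0.83). For Asns they were Fam78b (0.86), Sgms2 (0.83) and Deptor (0.82), for Phgdh Ppp1r9b (0.84), Tmeff2 (0.84) and Fn1 (0.81), and for Ddit3 Ltbr (0.84), Adamts8 (0.81) and Tdp1 (0.81). Trib3 had the weakest partners, Spry1 (0.79), Fam3c (0.77) and Mta3 (0.76). None of these lists held another of the 10 genes, and with 16 libraries and 11484 genes searched such values describe these libraries.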

How the data were processed

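The submitters' processing notes name bcl2fastq 4.0.3, then STAR, Salmon and GRCm38 without roles. Not given in the sources used here are the annotation, the strand setting and other versions. The deposited table holds estimated counts, not scaled to depth by the authors. Of them 11.1% were off a whole number by over 1e-06 and 5.96% by over 0.01, and all were rounded. All 16 columns matched a library by its label.

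Genes were tested in KO against WT with edgeR 4.0.16 (R 4.3.3; TMM, default low-count filter, quasi-likelihood test, no covariate), with Benjamini-Hochberg adjustment over 13792 genes and calls at 0.05. DESeq2 1.42.0, limma 3.58.1 with voom, other scalings, filters and covariates, a replicate block and leaving out libraries were alternatives. This test was first tested on simulated data. Correlations used log2(CPM + 0.5) less the genotype mean, with 100000 permutations of libraries within genotype. Exon lengths came from GENCODE vM21 (GRCm38).

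Libraries totalled 16065394 to 51881258 counts. Any pair of libraries of one genotype differed by a chi-square of at least 8.09 per degree of freedom, so none were merged. The genes and lists were chosen with earlier results of these data known. Named outside the 10 genes are Nampt, called genes of a list or else its 2 most abundant and 2 smallest-p genes, and the 3 genes most alike, in part. Some listed genes that were not tested are named as well.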

Additional observations from a re-analysis of the deposited data

Results flagged for a closer look

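In 20 sets of 8 libraries (10 genes in 2 genotypes), 1 library stood apart from the rest of its group by more than Dixon's 95% critical value for the gap over the range. It was Fgf21 in WT library 4, at 0.0988 CPM from 3 estimated counts, where the other WT libraries lay between 0 and 0.0362 CPM. Chance marks about 1 in 20 sets of continuous values, but with 6 of 8 WT libraries at 0 that rate does not apply here.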

How the results depend on the processing

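Nampt was called in all 26 alternative fits, and 0 of the 10 genes in any fit that tested them. Fgf21 and Gdf15 were tested only without the low-count filter, Trib3 was not tested at a mean of at least 1 CPM, and DESeq2 gave no adjusted p for 5 genes. The number of called genes, 6 in the reported fit, was 102 with DESeq2, 3 without a low-count filter, and 2 with RLE scaling, the replicate block, the covariate of RNA without a poly(A) tail, or the 4 KO libraries left out for such RNA. With 1 library left out it lay between 2 and 8, at 8 without WT library 7 and at 2 or 3 without KO library 1, 2, 3, 5 or 8 or WT library 2, 3, 4, 5, 6 or 8. The cause was not tested. Whether replicate numbers pair libraries is not given by the labels. The correlation of same-numbered KO and WT libraries ran from -0.09 to 0.36 (median 0.06, over 0.1 in 4 of 8 pairs) and that of different-numbered ones from -0.44 to 0.42 (median -0.04), and 3 of 16 libraries were closest to their own number, so the block was kept as an alternative. Single genes can depart from this. Atf4 had 118 and 117 CPM in KO and WT library 1, 93.2 and 101 in library 4 and 126 and 128 in library 7, but 106 and 138 in library 8. Its SE was 0.05 with the block, against 0.07 without, while that of Asns was 0.21, against 0.18. The permutations of the correlations moved KO and WT libraries independently, so their p-values take no account of any pairing by number.

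The log2 fold changes of Asns, Phgdh and Atf4 lay so near 0 that their sign turned. Asns was -0.073 with limma, -0.020 with RIN as a covariate, -0.11 with the covariate of RNA without a poly(A) tail and -0.25 without the 4 KO libraries, and ran from -0.068 to 0.10 with 1 library left out. Phgdh was -0.051 with limma, -0.014 with RIN and -0.039 without the 4 KO libraries, and ran from -0.067 to 0.14 with 1 left out. Atf4 ran from -0.071 to 0.0088 with 1 left out. The other 5 kept their sign. The lowest adjusted p of any of the 8 was 0.361, for Trib3 without WT library 7, at a log2 fold change of 0.45. That was the only fit with any of the 8 at an unadjusted p under 0.05. Pairs called among the 8 stayed at 0 with Spearman, within KO, within WT and without the 2 farthest libraries. The 4 relations to marker lists, examined by alternatives chosen after seeing the data, kept their sign and an unadjusted permutation p under 0.05 in all 20 of them, with r for Psat1 and macrophage markers from 0.87 to 0.92 and for Atf4 from -0.92 to -0.86 with 1 library left out. Low counts limit Trib3, Asns, Psat1, Phgdh, Fgf21 and Gdf15.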

Other observations

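Other factors that muscle secretes were described by 15 tested genes of a list of 18, of which edgeR and limma called 0 and DESeq2 called 1. The gene DESeq2 called was Mstn, the growth inhibitor myostatin, at -0.49 on the log2 scale (DESeq2 adjusted p = 0.00299). Another 9 genes on this list could not be called there, because their adjusted p was missing. Across all 13792 tested genes DESeq2 called 102, with 16 higher and 86 lower in KO. At an unadjusted p under 0.05 edgeR had 2 higher and 1 lower in KO, where 4.02% of all tested genes were higher and 5.55% lower. The lowest fold change of the list was that of Angptl4, a lipase inhibitor gene chosen after seeing its values, at -1.002 on the log2 scale with a 95% interval of -2.08 to 0.07 (edgeR adjusted p = 0.561). It had 2.64 ± 1.36 CPM in KO, against 5.13 ± 6.49 CPM in WT (SD, n = 8 each). Ostn, which encodes the peptide hormone musclin, had 8.59 ± 3.20 CPM in KO, against 5.86 ± 2.27 CPM in WT (SD, n = 8 each; log2 fold change 0.56, edgeR adjusted p = 0.406). Bdnf, a neurotrophin gene chosen after seeing its values, was at 0.76 on that scale (edgeR adjusted p = 0.454), and Mstn in edgeR was at -0.49 (adjusted p = 0.12). Vegfa, the angiogenic factor gene, was among the most abundant at 208 CPM in KO, against 216 CPM in WT, with a log2 fold change of -0.06.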
